A study of Mus musculus with 69 samples.

Results

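The libraries described here are the 13 RiboTag libraries from Camk2a-Cre neurons of Fmr1 knockout (KO) mice, 6 from primary visual cortex (V1) and 7 from primary somatosensory cortex (S1). They were chosen by their labels alone, as the KO libraries with a C animal code, out of 69 libraries in the series. Animals C3, C4, C5, C6, C7 and C14 each gave a V1 and an S1 library, and C12 gave an S1 library only. C3, C4 and C12 were males and the other 4 animals were females, all aged P70 to P100 and all in Batch 1. All of these mice carried Camk2a-Cre with the HA-tagged ribosomal protein allele, written Rpl22HA/HA in the design text, and all lacked Fmr1. The comparison is therefore between 2 areas of KO mice, and no allele or treatment differs between its groups. Sets used only for contrast were 16 wild-type (WT) Camk2a-Cre libraries, 8 per area, and 20 KO PV-Cre libraries, 10 per area, from mice with the same tagged allele and of the same age range. These were in Batch 1 too, except the S1 library of WT animal C24, which was in Batch 2. V1 and S1 were dissected from coronal slices 1.5 mm thick, so that tissue next to each area can be included.

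In RiboTag mice, Cre removes an exon of Rpl22 so that the recombined cells build ribosomes with an HA epitope, and an anti-HA antibody then pulls down those ribosomes with the mRNAs on them. The values are thus levels of ribosome-bound mRNA in cells with a history of Camk2a-Cre activity, which in cortex are mostly excitatory neurons. Camk2a itself is active widely in the forebrain, including hippocampus and striatum. Fmr1 encodes FMRP, an RNA-binding protein that represses translation of its target mRNAs and whose loss causes fragile X syndrome in humans. V1 receives visual input and S1 tactile input from the thalamus, mainly onto layer 4. In rodents, the excitatory neurons of layers 2/3, 5 and 6 differ in their projections: intratelencephalic (IT) cells project within the telencephalon, extratelencephalic (ET) cells to brainstem and spinal targets, and corticothalamic (CT) cells to the thalamus.

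Library totals ran from 36.3 to 49.1 M estimated counts (M, mega), and scaling factors from 0.927 to 1.039. Levels below are counts scaled to a library total of 1 M (CPM). They are not corrected for gene length, so levels are set side by side only within a gene. Fold changes are log2 values from edgeR's quasi-likelihood test, V1 minus S1, with their standard errors (SE), and "called" means a Benjamini-Hochberg adjusted p under 0.05 over all genes tested. The targeted gene was low in both areas of the KO mice: Fmr1 had 6.38, 8.36 and 9.79 CPM as lowest, median and highest value in V1, against 6.90, 8.18 and 9.50 CPM in S1. In the WT Camk2a libraries it had 70.7 to 91.3 CPM in V1 and 66.1 to 85.5 CPM in S1. The area difference of the residual Fmr1 signal in KO was -0.07 (SE 0.09, adjusted p = 0.716).

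Marker genes placed the libraries with excitatory neurons, but several stood apart and bear on the results. Summed over 17 excitatory neuron markers, levels were 17890 to 18659 CPM in V1 and 18287 to 19681 CPM in S1. The dentate gyrus transcription factor Prox1 had 19.9 and 25.2 CPM in the V1 libraries of C4 and C5, and at most 0.855 CPM in each of the other 11 libraries. Drd2, a receptor of striatal projection neurons, had 4.74, 3.76 and 7.36 CPM in the S1 libraries of C5, C6 and C14, 1.45 CPM in that of C12, and at most 0.489 CPM in the other S1 libraries. Animal C3 carried interneuron mRNA in both areas: Gad1, the GABA-synthesizing enzyme, had 169 CPM in its V1 and 361 CPM in its S1 library, against 15.7 to 33.0 CPM in the other 11. Over 13 measured hippocampal neuron markers the sums were 884 to 1218 CPM in V1 and 727 to 818 CPM in S1. Of the 12 tested, 6 were called higher in V1 and 0 lower (50% in all, beside 13.1% of all genes), with a median of 0.82. When the 5 libraries named below were left out, edgeR called 0 of the 12, with 4 at an unadjusted p under 0.05, and the median was 0.26. Without only the V1 libraries of C4 and C5, 4 were called higher and 0 lower, 11 were positive, and the median was 0.32. Both fits kept the V1 library of C6, where the hippocampal markers summed to 1152 CPM, beside 1162 CPM in V1 of C4 and 1218 CPM in V1 of C5. Over 18 striatal neuron markers the sums were 749 to 878 CPM in V1 and 922 to 1558 CPM in S1. Of these 18, 0 were called higher and 5 lower (27.8% in all), with a median of -0.67. Without the 5 libraries named below 1 was called higher and 1 lower, with a median of 0.06. None of the markers measured in these lists was at 0 in all libraries. In such bulk material, fewer cells of a type and less RNA per cell cannot be told apart. The part of these tissues in the results below was not tested, and counts without the 5 libraries with Prox1 or high Drd2 (V1 of C4 and C5, S1 of C5, C6 and C14) are given for the lists described.

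**Figure D1:**
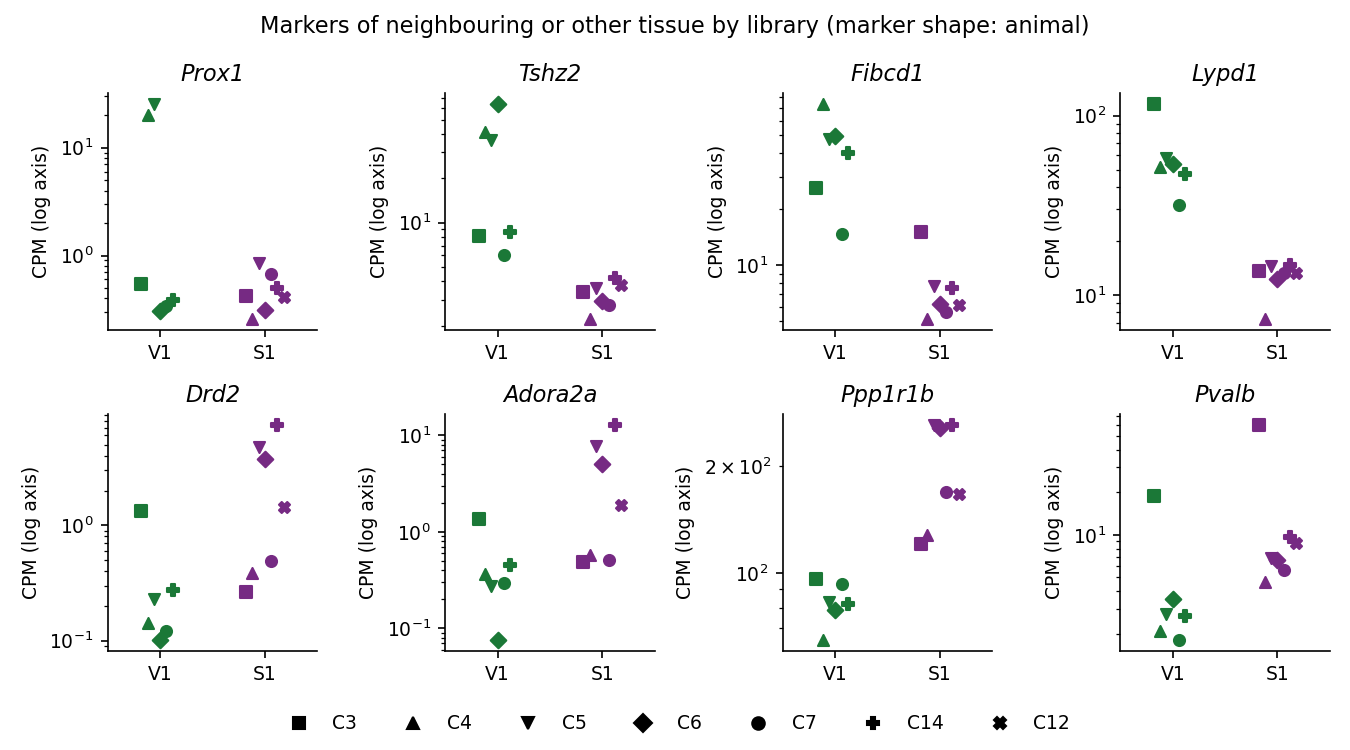
CPM (log axis) of 8 genes in each KO Camk2a library, V1 left and S1 right, with 1 marker shape per animal. Prox1 is high in 2 V1 libraries, Drd2 and Adora2a are high in 3 S1 libraries, and Pvalb is highest in both libraries of C3.

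V1 and S1 differed in 2058 of 15754 genes tested (13.1%), of which 1011 were higher in V1 (6.42%) and 1047 lower (6.65%). Each V1 library was made from the same animal as an S1 library, and with the animal as a block 3281 genes were called (20.8%), 1588 higher and 1693 lower. For 913 genes (5.80%) no V1 library overlapped any S1 library. V1 was the higher area in all 6 paired animals for 2147 genes (13.6%) and the lower in all 6 for 1723 genes (10.9%). Without the V1 libraries of C4 and C5 the count of called genes was 1147, and without the S1 libraries of C5, C6 and C14 it was 669. Without all 5 it was 186 of 15642 tested, of which 115 were higher and 71 lower. Of the 2058 called genes, 2052 had the same sign in that last fit, and 180 were also called. The genes had been called with these same libraries among others, so the kept signs are no separate support. That fit kept V1 of C3, C6, C7 and C14 and S1 of C3, C4, C7 and C12, so only C3 and C7 were still paired. Fewer libraries by themselves lower a count of calls. Their part in the lower counts here and in the lists below was not tested. Each list count below is to be read beside the share over all genes, 13.1% with all libraries and 186 of 15642 without the 5. Females alone gave 988 called genes.

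The genes lower in V1 with the smallest adjusted p encode channel subunits. Kcnab3 (chr11:69326258-69333042, plus strand, GRCm38), a beta subunit of voltage-gated potassium channels, had 63.6, 80.5 and 97.1 CPM in V1 and 232, 266 and 314 CPM in S1. Every V1 library was below every S1 library, and the fold change was -1.75 (SE 0.08, adjusted p = 4.6e-09). Scn4b (chr9:45138395-45154152, plus strand), a beta subunit of voltage-gated sodium channels that shapes resurgent current, had 72.6, 76.7 and 95.7 CPM in V1 and 237, 263 and 311 CPM in S1, again with no overlap and a fold change of -1.79 (SE 0.09, adjusted p = 8.9e-09). Both kept their calls without the 5 libraries, at -1.77 for Kcnab3 (adjusted p = 2.1e-04) and -1.66 for Scn4b (adjusted p = 0.0011). Tmem215 (chr4:40472180-40477168, plus strand), a membrane protein gene used as a layer 4 marker, had 15.7, 18.3 and 23.2 CPM in V1 and 53.8, 63.0 and 69.8 CPM in S1, with a fold change of -1.75 (SE 0.10, adjusted p = 9.8e-08). It too was separated in all libraries.

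Among the most reduced genes were several enzymes and secreted factors. Cyp39a1, an oxysterol hydroxylase, had 1.26, 1.75 and 2.10 CPM in V1 and 5.67, 8.29 and 10.3 CPM in S1, with the strongest drop among lower genes above 5 CPM on average (-2.26, SE 0.15, adjusted p = 3.3e-07). Abcd2, a peroxisomal fatty acid transporter, averaged 39.5 ± 3.20 CPM in V1 and 98.6 ± 12.0 CPM in S1 (SD, n = 6 and 7), a change of -1.35. The Wnt ligand gene Wnt2b averaged 2.92 ± 0.863 CPM in V1 and 9.59 ± 1.01 CPM in S1, a change of -1.77. Htra1, a secreted serine protease, was lower by a log2 value of -1.36, the monocarboxylate transporter gene Slc16a6 by -1.38, the complement gene C1ra by -1.48 and the interleukin-4 receptor gene Il4ra by -1.31. For none of these 7 genes did V1 and S1 libraries overlap. A lower V1 value in each of the 6 paired animals was a condition for naming them, so it is no separate result. Pld5, which is used as a layer 5 IT marker, had 1.72, 3.31 and 12.0 CPM in V1 and 13.5, 14.8 and 18.2 CPM in S1. Its highest V1 value came from C3.

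Cpne7, Itga4 and Efnb3 were among the genes higher in V1. Cpne7 (chr8:123117374-123135182, plus strand), a calcium-dependent phospholipid-binding protein, had 12.9, 21.5 and 28.2 CPM in V1 and 1.34, 2.70 and 4.22 CPM in S1. Its V1 libraries were all above its S1 libraries, with a fold change of 2.95 (SE 0.24, adjusted p = 4.1e-06). Itga4 (chr2:79255426-79333123, plus strand), the integrin alpha-4 subunit, had 24.9, 37.5 and 45.0 CPM in V1 and 7.24, 9.32 and 10.5 CPM in S1, also with no overlap and with a fold change of 2.05 (SE 0.13, adjusted p = 1.4e-07). Both stayed called without the 5 libraries, at 2.64 for Cpne7 (adjusted p = 0.010) and 2.00 for Itga4 (adjusted p = 0.0053). Exons of Itga4 overlap those of Cerkl on the other strand, and Cerkl averaged 1.09 CPM in V1 and 1.12 CPM in S1. Efnb3, an ephrin ligand of axon guidance, had 12.4, 20.8 and 31.3 CPM in V1 and 2.51, 4.98 and 6.53 CPM in S1, a change of 2.19 (SE 0.23, adjusted p = 3.8e-05).

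A further group of strongly higher genes varied more between V1 libraries. Tshz2, a zinc finger gene marking near-projecting and retrosplenial neurons, had 6.02, 22.4 and 63.6 CPM in V1 and 2.23, 3.36 and 4.24 CPM in S1. Its V1 values of C4, C5 and C6 were 41.4, 36.2 and 63.6 CPM, while those of the other 3 animals were at most 8.68 CPM. The fold change of Tshz2 was 3.03 (SE 0.57, adjusted p = 0.0048), and without the 5 libraries 2.26 (adjusted p = 0.568). Fibcd1, which marks hippocampal CA1 neurons, had 14.8 to 73.5 CPM in V1 and 5.15 to 15.1 CPM in S1, with a fold change of 2.49 (adjusted p = 6.4e-04), and without the 5 libraries 2.07 (adjusted p = 0.208). Lypd1, a modulator of nicotinic receptors, had 31.7, 52.6 and 116 CPM in V1 and 7.35, 13.3 and 14.6 CPM in S1 (2.20, SE 0.24, adjusted p = 7.6e-05), its highest V1 value coming from C3. Its exons overlap those of Gpr39 on the other strand, a gene that averaged 0.532 CPM in V1 and 0.115 CPM in S1. Other genes in this group were the ciliary receptor gene Gpr161 (2.23), the imprinted gene Nnat (2.24), the tubulin gene Tubb2b (2.10), the receptor kinase gene Kit (2.08), the exocytosis gene Doc2b (1.75), Igsf3 (1.70) and the immediate early gene Egr2 (1.69). The adjusted p without the 5 libraries was 0.146 for Gpr161 and 0.403 for Kit, and with the animal block Kit was not called either (adjusted p = 0.063).

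**Figure D2:**
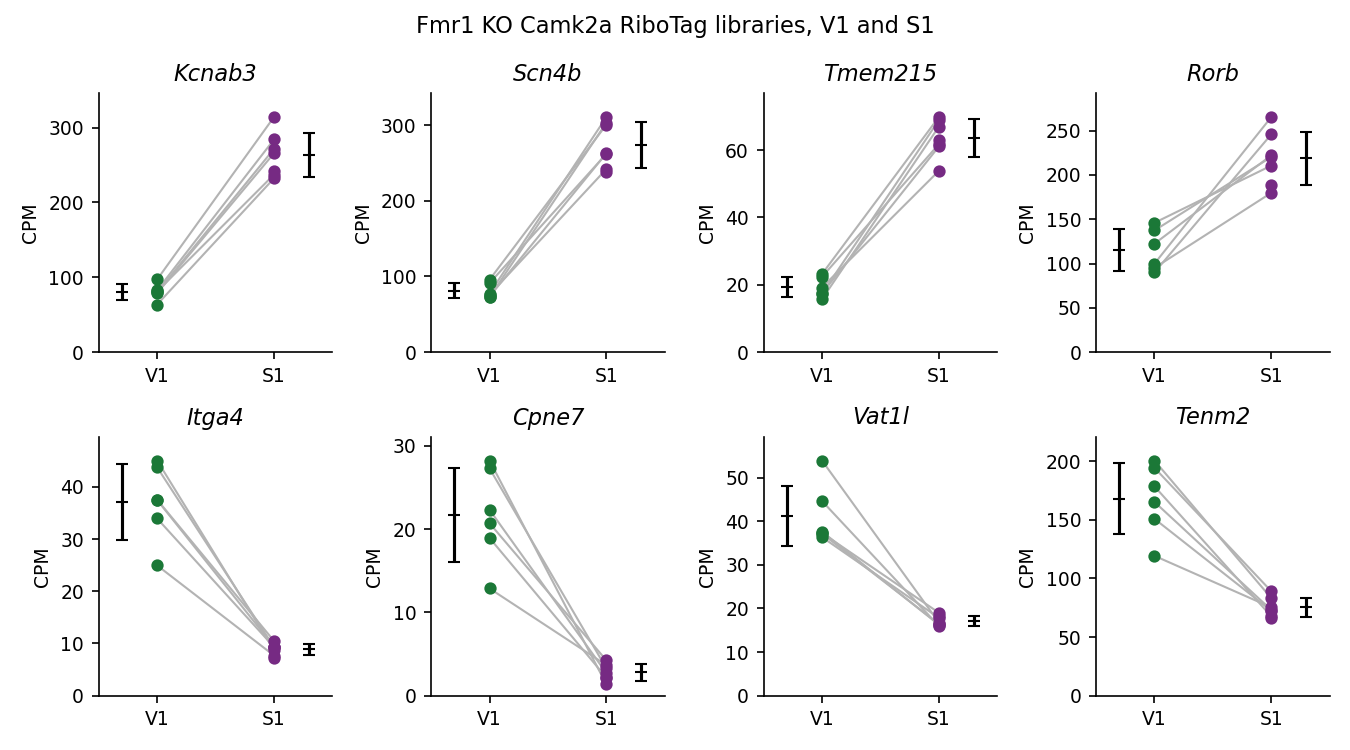
CPM of 8 genes in the KO Camk2a libraries, V1 left (6) and S1 right (7). Lines join libraries of 1 animal, and bars give the mean and SD of each area. Kcnab3, Scn4b, Tmem215 and Rorb are lower and Itga4, Cpne7, Vat1l and Tenm2 higher in V1, with no overlap between areas for any of the 8.

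The sequences just before the start sites of 4 of these genes are shown because 2 were lower and 2 higher in V1 and because several of the changed genes encode nuclear receptors that bind the half-site AGGTCA, among them Rorb, Rora and Thra. Each is 250 bases long on the coding strand, from RefSeq on GRCm38.p6, for the most upstream start listed. Capitals mark AGGTCA or its reverse complement TGACCT; the cAMP response element TGACGTCA was searched as well.
Tmem215, chr4:40471930-40472179, plus strand: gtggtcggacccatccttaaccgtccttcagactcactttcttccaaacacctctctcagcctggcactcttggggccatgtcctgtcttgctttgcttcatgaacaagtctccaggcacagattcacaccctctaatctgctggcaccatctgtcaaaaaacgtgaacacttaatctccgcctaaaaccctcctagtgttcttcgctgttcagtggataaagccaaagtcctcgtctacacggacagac
Rorb, chr19:19111197-19111446, minus strand: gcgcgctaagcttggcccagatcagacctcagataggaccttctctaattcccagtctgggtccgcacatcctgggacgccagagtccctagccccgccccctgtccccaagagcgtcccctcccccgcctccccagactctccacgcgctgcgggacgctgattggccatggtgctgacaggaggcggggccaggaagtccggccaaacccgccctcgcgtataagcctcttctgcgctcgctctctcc
Itga4, chr2:79255176-79255425, plus strand: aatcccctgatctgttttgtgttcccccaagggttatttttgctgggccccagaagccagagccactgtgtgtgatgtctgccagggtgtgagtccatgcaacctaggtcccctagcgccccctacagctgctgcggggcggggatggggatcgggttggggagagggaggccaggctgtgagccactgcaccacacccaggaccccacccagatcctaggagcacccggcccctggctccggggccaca
Gpr161, chr1:165295516-165295765, plus strand: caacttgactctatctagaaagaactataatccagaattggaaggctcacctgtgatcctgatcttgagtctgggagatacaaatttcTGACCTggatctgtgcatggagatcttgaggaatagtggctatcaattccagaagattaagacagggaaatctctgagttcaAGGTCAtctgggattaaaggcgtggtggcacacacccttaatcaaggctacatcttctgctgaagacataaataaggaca
In these windows only Gpr161 held the half-site, once on each strand, and the window of its other listed start held none. Of the 87 genes named here with a promoter, 7 held the half-site at any listed start. Promoters were found for 735 of the 1011 genes higher in V1, 739 of the 1047 lower and 11270 of the 15754 tested. AGGTCA stood on either strand in 10.9% of the promoters of higher genes, 14.5% of those of lower genes and 12.8% of all, counting a gene once over all its listed starts. TGACGTCA stood in 1.91% of higher, 2.44% of lower and 3.05% of all promoters. These letters are a description of the windows and do not show binding.

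Layer 4 markers were mostly lower in V1. Of 11 tested, 7 were called lower and 1 higher (72.7% in all, beside 13.1% of all genes). Their median fold change was -0.81, beside 0.001 over all genes. Rorb (chr19:18930605-19111196, minus strand), a nuclear receptor needed for the arrangement of layer 4 cells in mouse barrel cortex, had 89.9, 111 and 146 CPM in V1 and 180, 220 and 265 CPM in S1. All V1 values of Rorb were below all S1 values (-0.97, SE 0.13, adjusted p = 1.6e-04), and without the 5 libraries it was -1.01 with an adjusted p of 0.090. Hsd11b1, which regenerates active glucocorticoid, averaged 2.61 ± 0.548 CPM in V1 and 4.89 ± 1.09 CPM in S1 (-0.96, adjusted p = 6.4e-04). The epithelial sodium channel subunit Scnn1a averaged 11.8 ± 4.27 CPM in V1 and 18.1 ± 2.57 CPM in S1, with overlapping libraries (-0.66, adjusted p = 0.029). Endou was the member that was higher (0.48, adjusted p = 0.033). The calls of Endou and Scnn1a were each lost under 12 of 29 other settings. When the 5 libraries were left out, 1 of the 11 was called lower and 0 higher, and the median was -0.96.

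Layer 5 ET markers moved mostly the other way: 7 of 12 were called higher and 1 lower in V1. The called share was 66.7%, beside 13.1% of all genes, and the median was 0.54. Vat1l (chr8:114205612-114374071, plus strand), a marker of thick-tufted layer 5 cells, had 36.4, 37.5 and 53.9 CPM in V1 and 16, 16.8 and 19 CPM in S1 (1.25, SE 0.08, adjusted p = 3.3e-07). Crym, a thyroid hormone-binding protein, had 37.1, 65.8 and 94.5 CPM in V1 and 8.46, 16.3 and 23.0 CPM in S1 (1.98, SE 0.25, adjusted p = 2.1e-04). Fezf2, the transcription factor that specifies subcerebral projection neurons in mice, averaged 47.3 ± 7.06 CPM in V1 and 25.7 ± 5.49 CPM in S1 (0.85, adjusted p = 4.5e-04). The low gene Ctxn3 had 1.29, 2.82 and 4.79 CPM in V1 and 0, 0.265 and 0.510 CPM in S1. No library of these 4 genes crossed over between areas. When the 5 libraries were left out, 1 of the 12 was called higher, and the median was 0.52.

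Markers of other layers went in both directions or gave no call. Of 13 layer 2/3 markers, 3 were called higher and 4 lower (53.85% in all, beside 13.1% of all genes, median -0.07). Wfs1, an endoplasmic reticulum membrane protein, had 77.1, 132 and 213 CPM in V1 and 50.9, 58.0 and 62.2 CPM in S1 (1.20, adjusted p = 1.9e-04). Lamp5, a lysosome-associated membrane protein found also in a class of interneurons, had 291, 322 and 370 CPM in V1 and 422, 485 and 519 CPM in S1 (-0.57, adjusted p = 9.4e-05). Adamts2 (1.02) and Otof (1.35) were higher, and Cux1 (-0.62) was lower. Of 8 layer 5 IT markers, 2 were called higher, among them Etv1 (0.79), and 2 lower. Of 5 layer 5/6 near-projecting markers, Tshz2 and Lypd1 were higher and Ptprm (-0.58, adjusted p = 0.036) was lower. The call of Ptprm was lost under 13 of 29 other settings. Of 11 layer 6 CT markers, 3 were higher, with the neurotensin receptor gene Ntsr1 at 1.01 (adjusted p = 0.0022) and Col5a1 at 0.88, and 2 lower, Sulf1 at -0.72 and Foxp2 at -0.55. Without the 5 libraries, 1 layer 2/3 marker (Wfs1, adjusted p = 0.036) was called higher and 1 (Lamp5, adjusted p = 0.039) lower, and of 4 near-projecting markers then tested 1 (Lypd1, adjusted p = 0.017) was higher. None of the layer 5 IT or layer 6 CT markers was then called by edgeR, with 3 in each list at an unadjusted p under 0.05. None of 9 layer 6b markers was called by edgeR, with 2 at an unadjusted p under 0.05, 2 called by DESeq2 and 1 by the animal block. None of 7 layer 6 IT markers was called by edgeR, with 1 at an unadjusted p under 0.05, 0 called by DESeq2 and 1 by the animal block.

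**Figure D3:**
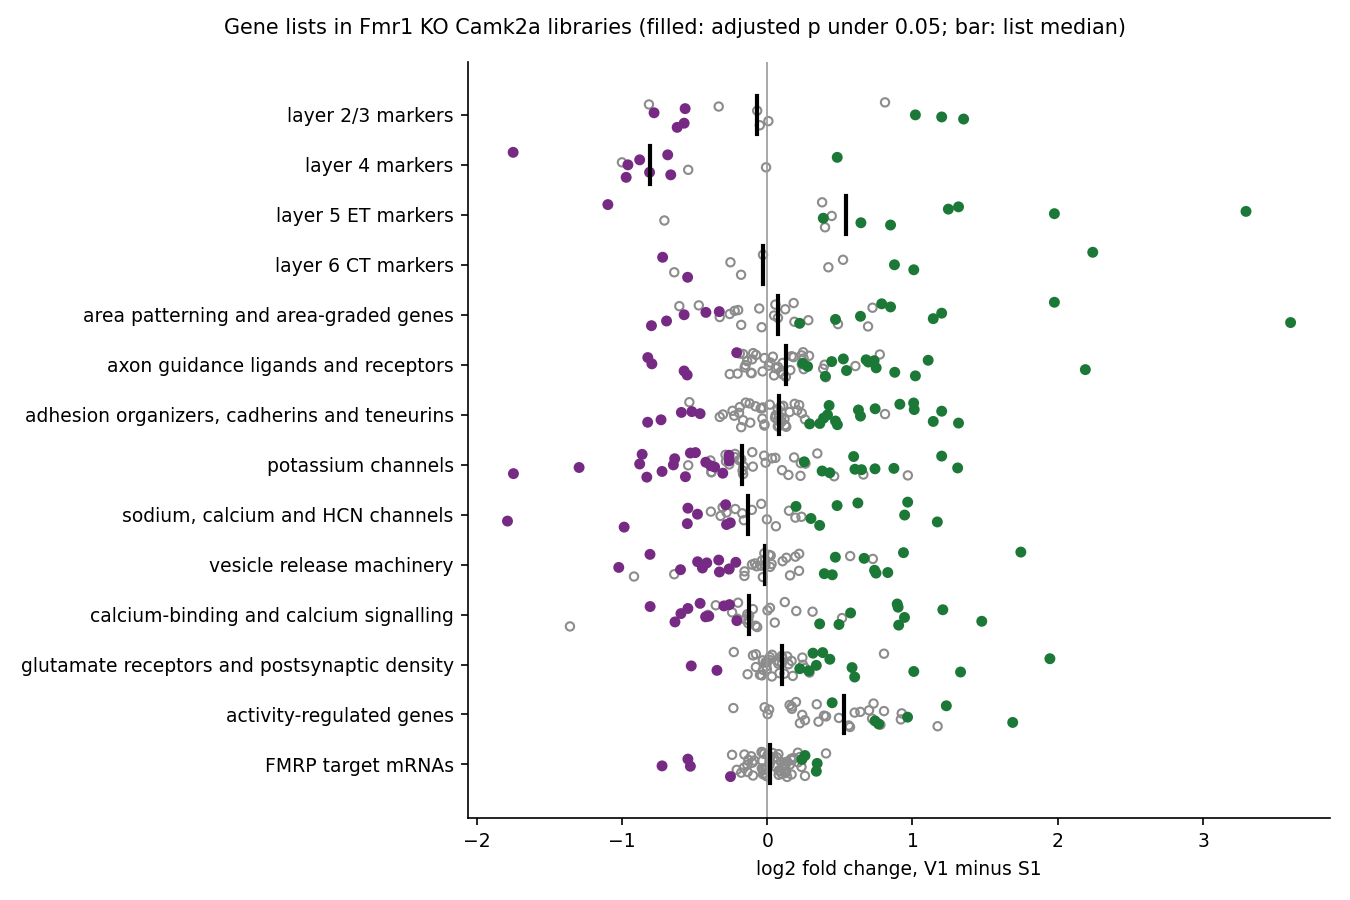
Log2 fold change (V1 minus S1) of each tested member of 14 gene lists in KO Camk2a libraries. Filled points passed an adjusted p of 0.05 (green higher, purple lower in V1), open points did not, and the black bar is the list's median, -0.81 for layer 4 and 0.54 for layer 5 ET markers.

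Genes known for graded expression across the developing cortex included calls in both directions. Of 33 area patterning and area-graded genes, 9 were called higher in V1 and 5 lower. The called share was 42.4%, beside 13.1% of all genes, and the median was 0.07. Tenm2 (chr11:36006656-37235964, minus strand), a teneurin adhesion molecule, had 119, 172 and 201 CPM in V1 and 66.4, 73.1 and 89.1 CPM in S1 (1.14, SE 0.12, adjusted p = 2.5e-05). Its relative Tenm3, which in mice guides connections of the visual system, averaged 145 ± 33.6 CPM in V1 and 104 ± 11.2 CPM in S1 with overlap (0.47, adjusted p = 0.034). The call of Tenm3 was lost under 15 of 29 other settings. The protocadherin gene Pcdh8 averaged 43.4 ± 7.10 CPM in V1 and 18.7 ± 2.66 CPM in S1 (1.20, adjusted p = 6.7e-06), and Cdh8 70.4 ± 14.8 and 44.4 ± 3.81 CPM in these areas (0.64, adjusted p = 0.0041). Lhx2, a cortical selector gene, differed least among the called members, at 0.22 (adjusted p = 0.041); its call was lost under 19 of 29 other settings, with an adjusted p of up to 0.582. With the 5 libraries left out, 1 of 32 area genes tested was called higher and 1 lower.

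The area genes lower in V1 were Lmo3, Efna5, Emx2, Igfbp5 (-0.33) and Igfbp4 (-0.42). The call of Igfbp4 was lost under 13 of 29 other settings. Lmo3, a LIM-only transcription cofactor, averaged 79.1 ± 13.5 CPM in V1 and 125 ± 14.7 CPM in S1 (-0.69, adjusted p = 7.1e-05). The ephrin Efna5 averaged 53.9 ± 4.61 CPM in V1 and 79.2 ± 5.72 CPM in S1 (-0.57, adjusted p = 1.4e-04). Emx2 encodes a transcription factor that in the embryonic mouse cortex is highest at its caudal and medial pole. In these adult libraries it had 1.90, 2.20 and 2.67 CPM in V1 and 2.83, 3.77 and 5.16 CPM in S1 (-0.80, SE 0.16, adjusted p = 0.0036), below S1 in every V1 library. Exons of Emx2 overlap its antisense gene Emx2os. For Nr2f1, which patterns caudal areas in the embryo, the values were 101 ± 10.9 CPM in V1 and 102 ± 9.63 CPM in S1 (-0.04, SE 0.07, adjusted p = 0.794). Emx1 (-0.18, adjusted p = 0.090), Lmo4 (0.28, adjusted p = 0.054) and Epha7 (0.05, adjusted p = 0.863) did not pass the threshold either.

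Retinoic acid and thyroid hormone signalling genes, a group that includes Rorb and Crym, had 4 called higher and 6 lower of 22 (median -0.13). The called share was 45.45%, beside 13.1% of all genes. The orphan receptor gene Rora averaged 68.0 ± 8.88 CPM in V1 and 119 ± 9.24 CPM in S1 (-0.83, adjusted p = 2.4e-05). Hr, a corepressor and thyroid hormone target, averaged 76.5 ± 14.8 CPM in V1 and 148 ± 13 CPM in S1 (-0.95, adjusted p = 1.3e-04). Dhrs3, which reduces retinal, was lower (-1.34, adjusted p = 8.3e-04). Both thyroid hormone receptor genes were slightly higher in V1, Thra by a log2 value of 0.38 (adjusted p = 0.011) and Thrb by 0.28 (adjusted p = 0.015). In the fit without the 5 libraries, 0 of the 22 were called higher and 2 lower.

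Ion channel genes were called in both directions. Of 58 potassium channel genes, 10 were higher and 17 lower (46.6% in all, median -0.17), and of 30 sodium, calcium and HCN channel genes, 8 were higher and 8 lower (53.3% in all, median -0.13), beside 13.1% of all genes. Beside Kcnab3, the modulatory subunit gene Kcns1 had 41.5, 46.1 and 52.5 CPM in V1 and 76.9, 81.8 and 90.5 CPM in S1 (-0.86, SE 0.08, adjusted p = 4.3e-06). The leak channel gene Kcnk4 (-0.64) and the sodium-activated channel gene Kcnt1 (-0.53) were lower. Kcnc4, a Kv3 channel gene, was higher, with 125, 142 and 150 CPM in V1 and 98.0, 103 and 113 CPM in S1 (0.38, SE 0.05, adjusted p = 1.4e-04), as were Kcng1 (0.74) and the small-conductance channel gene Kcnn2 (0.59). With the 5 libraries left out, 2 potassium channel genes were called higher and 3 lower, and 2 and 2 of the other channel genes.

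Sodium channel subunits split by member. Scn1a, the Nav1.1 pore, had 147, 157 and 178 CPM in V1 and 241, 302 and 391 CPM in S1 (-0.98, SE 0.12, adjusted p = 5.4e-05). Scn3b, a beta subunit, had 107, 144 and 167 CPM in V1 and 54.4, 63.9 and 67.7 CPM in S1 (1.17, SE 0.10, adjusted p = 2.4e-06). The T-type calcium channel gene Cacna1h (0.95) and the AMPA receptor auxiliary subunit gene Cacng8 (0.48) were higher. Scn1a, Kcnab3 and Vamp1 are also strongly expressed by PV interneurons. Over 16 PV interneuron markers the sums were 681 to 1417 CPM in V1 and 954 to 2605 CPM in S1. The highest sum in each area was that of C3. Of the 16, 1 was called higher and 1 lower (12.5%, beside 13.1% of all genes), with a median of -0.41. In the fit without the 5 libraries, 0 of the 16 PV markers were called, with 1 at an unadjusted p under 0.05, and their median was 0.19. With the animal as a block 1 PV marker was called higher and 7 lower, and without C3 the counts were the same. With a PV marker score as a covariate the whole comparison gave 2102 called genes, and without C3 1666.

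Synaptic release genes were called in both directions, 9 higher and 10 lower of 45 (42.2% in all, beside 13.1% of all genes, median -0.01). Doc2a, a calcium sensor of spontaneous release, averaged 87.8 ± 7.52 CPM in V1 and 45.3 ± 7.15 CPM in S1 (0.94, adjusted p = 8.9e-06). Rab3c (0.67) and Syn2 (0.47) were higher as well. Snap25, a core fusion protein, had 4806, 4879 and 5425 CPM in V1 and 6427, 6697 and 7081 CPM in S1 (-0.45, SE 0.05, adjusted p = 3.4e-05). The vesicle SNARE gene Vamp1 averaged 103 ± 18.8 CPM in V1 and 211 ± 53.2 CPM in S1 (-1.02, adjusted p = 8.8e-05), and Sv2c was lower by -0.81. For each of these 6 genes the areas did not overlap. With the 5 libraries left out, 5 release genes were called higher and 0 lower.

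Calcium signalling genes had 9 higher and 10 lower of 40 (47.5% in all, beside 13.1% of all genes, median -0.13). The calmodulin kinase gene family split: Camk2d had 92.6, 115 and 143 CPM in V1 and 53.7, 58.8 and 68.6 CPM in S1 (0.94, adjusted p = 8.9e-06), while Camk2g had 388, 422 and 464 CPM in V1 and 527, 560 and 576 CPM in S1 (-0.42, adjusted p = 8.1e-05). The plasma membrane calcium pump genes did so too, with Atp2b4 at 458 ± 47.0 CPM in V1 and 243 ± 16.6 CPM in S1 (0.90) and Atp2b2 at 1618 ± 190 CPM in V1 and 2358 ± 366 CPM in S1 (-0.55, adjusted p = 0.0048). Hpcal1, a neuronal calcium sensor, was higher (0.91, adjusted p = 1.1e-06), and Camkk2 (-0.59) and Cabp1 (-0.64) were lower. In the fit without the 5 libraries, 6 calcium genes were called higher and 0 lower.

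Glutamate receptor and postsynaptic genes were called more often higher than lower in V1, 11 against 2 of 46, with a median of 0.10. The NMDA receptor subunit gene Grin3a averaged 11.7 ± 4.68 CPM in V1 and 4.60 ± 1.19 CPM in S1 (1.33, adjusted p = 8.9e-04), and the AMPA receptor subunit gene Gria1 410 ± 83.2 and 271 ± 26.3 CPM in these areas (0.60, adjusted p = 0.0014). Grm4 (-0.52) and Grik3 (-0.35) were the 2 lower members. Of 26 GABA synapse genes, 3 were higher, the transporter gene Slc6a11 (0.61), Gabrb1 (0.45) and Gabra5 (0.54), and 2 lower, among them Gabrd (-0.49). The called share was 19.2% for GABA synapse genes and 28.3% for glutamate genes, beside 13.1% of all genes. Without the 5 libraries edgeR called 1 of the 46 glutamate genes, higher, and none of the 26 GABA synapse genes, 5 of which were at an unadjusted p under 0.05.

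Among guidance and adhesion genes, more were called higher than lower, though most were not called. Of 57 axon guidance genes, 14 were higher and 5 lower (33.3% in all, beside 13.1% of all genes, median 0.13). The semaphorin receptor gene Nrp2 averaged 19.8 ± 4.71 CPM in V1 and 9.25 ± 2.00 CPM in S1 (1.11, adjusted p = 2.0e-04), and Epha6 15.9 ± 3.55 and 7.84 ± 1.04 CPM (1.02, adjusted p = 2.3e-04). Sema7a, which in mouse barrel cortex shapes layer 4 circuits, had 226, 252 and 303 CPM in V1 and 385, 438 and 517 CPM in S1 (-0.79, SE 0.09, adjusted p = 3.9e-05), and Robo3 was lower by -0.82. Of 62 adhesion genes, 16 were higher and 5 lower (33.9% in all). The higher ones included the X-linked protocadherin gene Pcdh19 (1.01, adjusted p = 5.0e-05). Among the lower ones were the latrophilin gene Adgrl2 (-0.73), Cdh18 (-0.46) and the cerebellin gene Cbln4 (-0.82). Without the 5 libraries 1 guidance gene was higher and 2 lower, and 3 adhesion genes were higher and 0 lower.

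Secreted factors and receptors of neuromodulators were called in both directions. Of 45 neuropeptide and secreted factor genes, 10 were higher and 7 lower (37.8% in all, beside 13.1% of all genes, median 0.12). The chemokine gene Cxcl12 averaged 17.2 ± 3.37 CPM in V1 and 7.51 ± 1.45 CPM in S1 (1.19, adjusted p = 1.8e-05), the peptide gene Grp 8.16 ± 1.54 and 2.94 ± 0.834 CPM (1.46, adjusted p = 7.9e-05), and Adcyap1, which encodes PACAP, 25.8 ± 3.77 and 14.6 ± 2.03 CPM (0.83, adjusted p = 1.0e-04). Fgf9 was lower, at 17.0 ± 1.59 CPM in V1 and 25.8 ± 2.99 CPM in S1 (-0.60, adjusted p = 7.1e-05). Of 51 neuromodulator receptor genes, 7 were higher and 4 lower (21.6% in all, beside 13.1% of all genes). The histamine receptor gene Hrh1 had 28.3, 38.4 and 49.1 CPM in V1 and 16.7, 19.9 and 20.9 CPM in S1 (0.97, adjusted p = 1.2e-04). The serotonin receptor gene Htr5b had 1.22, 2.44 and 5.05 CPM in V1 and 0, 0.248 and 0.597 CPM in S1. The nicotinic subunit gene Chrnb3 had 1.34, 2.20 and 2.48 CPM in V1 and 4.00, 5.51 and 11 CPM in S1 (-1.56, adjusted p = 5.5e-04). With the 5 libraries left out, 3 of 44 secreted factor genes were called higher and 0 lower, and edgeR called 0 of the 51 receptor genes, with 8 at an unadjusted p under 0.05.

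Activity-regulated genes leaned to higher values in V1. Of 34 tested, 6 were called higher and 0 lower, 32 had a positive fold change, and the median was 0.53. The called share was 17.6%, beside 13.1% of all genes. With the animal as a block 19 were called higher and 0 lower, in a fit that called 20.8% of all genes. Jun had 47.2, 51.9 and 62.1 CPM in V1 and 24.4, 30.7 and 37.8 CPM in S1, without overlap (0.77, SE 0.09, adjusted p = 6.3e-05). The secreted granin gene Vgf had 342, 453 and 544 CPM in V1 and 281, 337 and 400 CPM in S1, with overlap (0.45, SE 0.11, adjusted p = 0.013). Ptgs2, an inducible cyclooxygenase, averaged 28.3 ± 16.9 CPM in V1 and 12.0 ± 1.57 CPM in S1 (1.23, adjusted p = 0.017), with 61.5 CPM in the V1 library of C14. Egr2, named above, had its highest V1 value in the same library, at 62.7 CPM. The call of Egr2 was lost under 18 of 29 other settings. Without the 5 libraries 1 of the 34 was called higher, 29 were positive, and the median was 0.32.

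Among groups tied to the knockout, the 71 FMRP target mRNAs tested had 4 called higher and 4 lower (11.3%, beside 13.1% of all genes), with a median of 0.02. Aplp1 averaged 1548 ± 122 CPM in V1 and 1297 ± 54.0 CPM in S1 (0.24, adjusted p = 0.0088), and Celsr3 (0.26) and Grm5 (0.34) were also higher. Kcnt1 and Atp2b2, described above, belong to the targets that were lower. None of the 71 was called by edgeR without the 5 libraries, with 5 at an unadjusted p under 0.05. Rapgef4, the gene of the cAMP sensor EPAC2 named in the title of the study, had 204, 231 and 249 CPM in V1 and 224, 263 and 309 CPM in S1. It was lower in V1 in all 6 pairs, with overlap between areas (-0.24, SE 0.07, adjusted p = 0.025). The call was lost under 9 of 29 other settings, and without the 5 libraries the value was -0.19 (adjusted p = 0.686). Its paralogue Rapgef3, which encodes EPAC1, had 4.24, 5.42 and 7.35 CPM in V1 and 1.24, 1.86 and 2.48 CPM in S1, with no overlap (1.62, SE 0.20, adjusted p = 7.0e-05). Of 12 perineuronal net components, 2 were higher and 1, the link protein gene Hapln4 (-0.57), lower (25% in all, beside 13.1% of all genes). Of 22 heat shock and stress genes, 1 was called (4.5%), Cryab (-0.67). None of 13 mitochondrially encoded genes was called by edgeR, DESeq2 or the animal block, with 0 at an unadjusted p under 0.05.

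Markers of tissue next to the areas also passed the test. The striatum-enriched signalling gene Ppp1r1b, which encodes DARPP-32 and is also found in cortical layer 6, had 65.0, 82.5 and 96.4 CPM in V1 and 121, 168 and 260 CPM in S1 (-1.23, SE 0.15, adjusted p = 8.9e-05). Without the 5 libraries it was -0.78 (adjusted p = 0.030). Rasd2, a striatal small G protein, averaged 94.8 ± 9.55 CPM in V1 and 170 ± 28.5 CPM in S1 (-0.87), and without the 5 libraries was at -0.68 (adjusted p = 0.052). Prox1 itself was not called (adjusted p = 0.058). Dkk3, a secreted Wnt modulator that marks both hippocampal and retrosplenial neurons, averaged 519 ± 89.5 CPM in V1 and 355 ± 21.8 CPM in S1 (0.53). Of 9 retrosplenial cortex markers, 5 were higher and 1 lower (66.7% in all, beside 13.1% of all genes). Their sum was 2801 to 3126 CPM in V1 and 2150 to 2496 CPM in S1. Without the 5 libraries 1 of the 9 was called higher and 0 lower, and their median was 0.36. Of 16 astrocyte markers 1 was higher and 2 lower (18.8% in all, beside 13.1% of all genes). None of 13 microglia markers was called by edgeR or DESeq2, with 0 at an unadjusted p under 0.05. None of 15 oligodendrocyte markers was called by edgeR or DESeq2, with 1 at an unadjusted p under 0.05 and 1 called by the animal block. With a glial marker score as a covariate 2472 genes were called.

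The same contrast in WT mice asks whether the area differences of KO neurons are seen with FMRP present. The WT libraries labelled C24 went against their labels: Kcnab3 had 226 CPM in the library labelled C24 V1 and 58.4 CPM in that labelled C24 S1, while the 7 other WT libraries of each area had 73.8 to 131 CPM in V1 and 238 to 348 CPM in S1. With C24 included, 56 of 15607 genes were called in WT (0.359%), 40 higher (0.256%) and 16 lower (0.103%), and with the animal block 7 (0.0449%); without it 3405 of 15614 were called (21.8%), 1722 higher (11%) and 1683 lower (10.8%). Of the 2058 genes called in KO, 2042 were tested in WT. Without C24, 2024 of these (99.1%) had the same sign in WT, and 1510 were called there with the same sign, which is 73.4% of the KO calls and 44.4% of the WT calls. None was called with the opposite sign. With C24 included, 2011 (98.5%) had the same sign and 27 were called. C24 was left out after its area differences were seen to go against the other paired WT animals (correlation with their mean -0.715). Shares without C24 follow in part from that choice and are no separate test. The KO genes higher in V1 had a median of 0.52 in KO and 0.43 in WT without C24, and the lower genes -0.47 in KO and -0.37 in WT. These genes were selected in KO, so the medians of the genotypes are given only as a description.

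The values of single genes in WT without C24 are set beside those of KO, with no test of their likeness. Kcnab3 was at -1.75 in KO and -1.68 in WT, Scn4b at -1.79 in KO and -1.42 in WT, Itga4 at 2.05 in KO and 1.99 in WT, and Cpne7 at 2.95 in KO and 2.75 in WT. Rapgef4 was at -0.24 in both genotypes, and Rapgef3 at 1.62 in KO and 1.38 in WT. Other genes lay further apart, with Tshz2 at 3.03 in KO and 1.93 in WT and Kit at 2.08 in KO and 1.38 in WT. Prox1, high in 2 KO V1 libraries, was at 0.291 to 0.862 CPM in the 7 other V1 libraries of WT mice. Drd2, high in 3 KO S1 libraries, was at 0.397 to 4.70 CPM in the 7 other S1 libraries of WT mice.

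**Figure D4:**
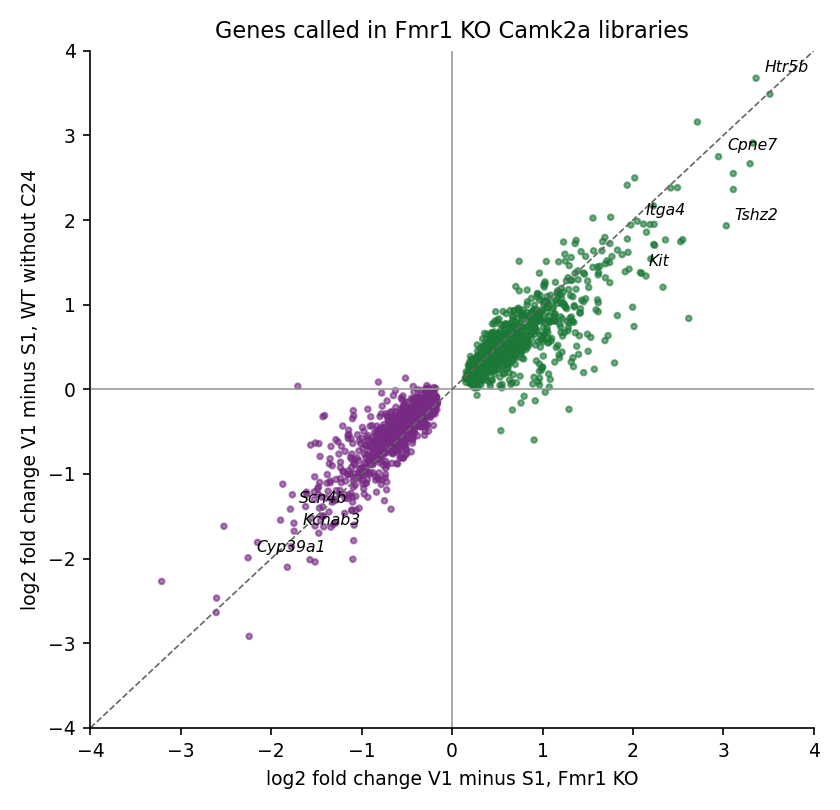
Log2 fold change (V1 minus S1) in KO (x axis) and in WT without C24 (y axis) for the 2042 genes called in KO Camk2a libraries and tested in WT. Green genes are higher and purple genes lower in V1 of KO mice, the dashed line marks equal values, and 2 genes lie outside the axes.

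The difference between the genotypes was itself tested. No gene of 16360 had a called genotype-by-area difference by edgeR with all libraries, at a smallest adjusted p of 0.677, while 608 were at an unadjusted p under 0.05. Without C24 none of 16310 was called and 560 were under 0.05, and DESeq2 called 1 gene with all libraries. With the animal as a block edgeR called 0 genes, with 1120 of 16360 at an unadjusted p under 0.05. With the block and without C24 it again called 0, with 1443 of 16310 under 0.05. This does not show that the genotypes are alike. Smoc2, an extracellular matrix protein and among the genes with the smallest unadjusted p, was at 0.89 in KO (adjusted p = 0.0010), with 11.7 ± 5.15 CPM in V1 and 6.19 ± 0.611 CPM in S1, and at 0.02 in WT with C24 included; the interaction was 0.90 (SE 0.21, adjusted p = 0.870).

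The KO PV-Cre libraries show which of the area differences differ between the 2 classes of neuron. In them 1218 of 16118 genes were called (7.56%), 559 higher (3.47%) and 659 lower (4.09%) in V1, but with the animal as a block 0 were, by edgeR, and 4781 were then at an unadjusted p under 0.05. The differences of animals P9 and P24 went against those of the other PV animals, correlating with their mean at -0.362 and -0.281 over 10557 genes, and without these 2 animals 3479 genes were called. Of the genes called in KO Camk2a libraries, 1951 were tested in PV with P9 and P24 included, and 78.2% of these had the same sign. In that PV fit 356 were called with the same sign (17.3% of the Camk2a calls and 29.2% of the PV calls) and 30 with the opposite sign. These shares were not computed without P9 and P24. The class-by-area difference was called for 701 of 17255 genes (4.06%). The signed V1 minus S1 value was higher in Camk2a for 324 (1.88%) and higher in PV for 377 (2.18%). This sign does not say in which class the areas differed more. Kcnab3, at -1.75 in Camk2a and -0.21 in PV, is among the 377. With the animal block 1016 were called (5.89%), and without P9 and P24 768.

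The genes with the largest class-by-area differences included several named above. PV values here are from all 20 KO PV libraries, with P9 and P24 included. Kcnab3 was at -1.75 in Camk2a and -0.21 in PV libraries, an interaction of -1.51 (SE 0.13, adjusted p = 1.6e-09). Gpr161 was at 2.23 in Camk2a and 0.03 in PV (2.19, SE 0.28, adjusted p = 1.0e-05), and Efnb3 at 2.19 in Camk2a and 0.46 in PV (1.75, SE 0.25, adjusted p = 3.8e-05). Cartpt, a neuropeptide precursor, was at -2.24 in Camk2a and 0.78 in PV (-2.82, SE 0.54, adjusted p = 0.0015). Sema3e, a secreted semaphorin, was at 0.75 in Camk2a and -0.87 in PV (1.62, SE 0.29, adjusted p = 7.8e-04), and the muscle glycogen phosphorylase gene Pygm at -1.10 in Camk2a and 0.44 in PV (-1.55, SE 0.24, adjusted p = 1.1e-04). Itga4 was higher in V1 in both classes, at 2.05 in Camk2a and 1.15 in PV (adjusted p of the difference = 0.126), and Atp2b4 was at 0.90 in Camk2a and 0.95 in PV (adjusted p of the difference = 0.959).

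**Figure D5:**
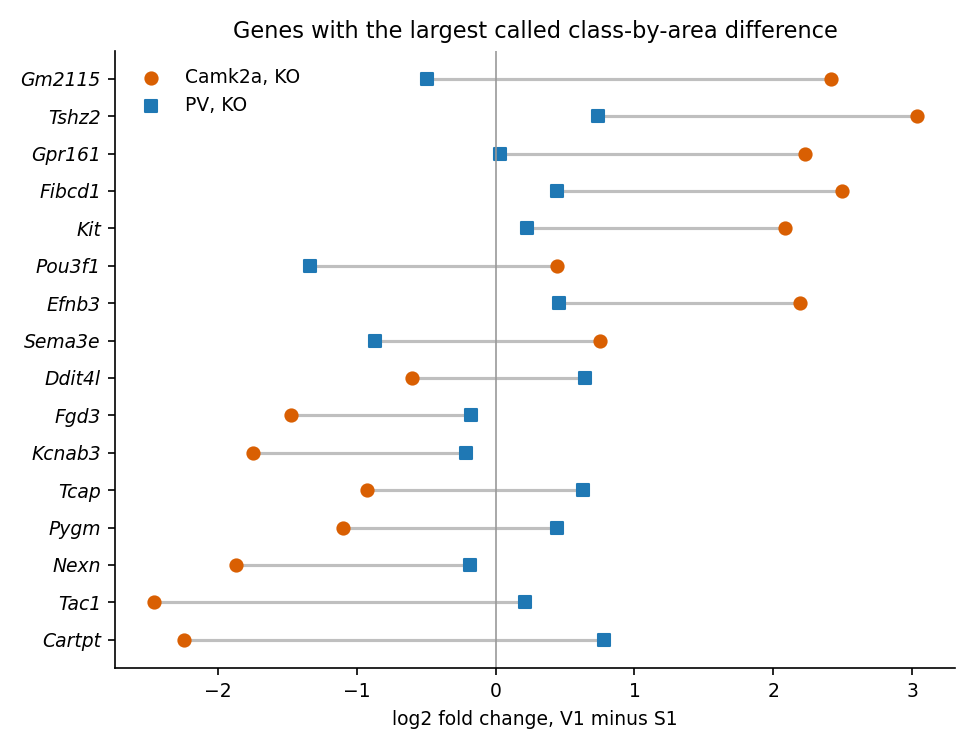
Log2 fold change (V1 minus S1) in KO Camk2a (orange circles) and KO PV libraries (blue squares) for the 16 genes, 8 in each direction, with the largest called class-by-area differences. Kcnab3 lies at -1.75 in Camk2a and -0.21 in PV libraries.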

How the data were processed

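The deposited table holds estimated counts per gene for 69 libraries and 17634 genes; 71.1% of its values are not whole, and they were rounded. Per the submitters' processing notes, STAR, Salmon and limma were used with build mm10; their roles and versions are not given in the sources used here. Per the labels' protocols, polyA RNA with an integrity number of at least 7 was made into libraries with the Ovation RNA-Seq System V2 and sequenced as paired reads of 100 bases. Library type is not stated to keep strand, so reads of a gene and of an overlapping gene on the other strand cannot be told apart. Exons of 16 of the 125 genes named here overlap those of another tested gene, on either strand. Library totals of 36.3 to 49.1 M counts set the counting precision, and the spread between libraries of an area exceeded counting noise.

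Samples were grouped by their labels. edgeR 4.0.16 in R 4.3.3 (filterByExpr, TMM factors, robust quasi-likelihood fit, sex as a covariate) gave fold changes and adjusted p-values for 5 comparisons: V1 against S1 in KO Camk2a, WT Camk2a and KO PV libraries, and the genotype-by-area and class-by-area interactions. The fit was tested on simulated data: of 100 genes set to a log2 change of 1 among 15754, 83 were called, of 100 set to 0.5, 60 were, and 5 of 15554 unchanged genes were. The simulated libraries were independent, with no animal effect and no mRNA of other tissue. These rates therefore do not show how the fit does on the paired libraries used here. The animal block pairs libraries of the same animal by code. Deviations from the area means correlated at 0.329 to 0.641 within each of 6 animals. Adjusted p-values given without mention of the block come from the fit without it, which treats the 13 libraries as independent. Those of the block measure the spread of the area differences within animals. CPM are plain, with no TMM factor. Alternatives were RLE factors, DESeq2 1.42.0, limma 3.58.1, other filters, covariates and left-out libraries. Gene names and coordinates come from GENCODE M21 (GRCm38); 20 IDs had no symbol. Of 990 entries in 41 gene lists, 31 were not in the table. Genes were named by rule: Fmr1; the 15 called genes with the largest change in each direction above a mean of 5 CPM and of 1 sign in all 6 pairs; up to 3 called members per list and direction; all area genes; and the leading genes of each interaction. Prox1, Drd2, Gad1, Cerkl and Gpr39 were named after their values were seen. Members and lists were chosen with earlier results of these data known. Promoters matched 87 of the 125 named genes. Inputs of the immunoprecipitation were not analysed here, and a few genes that the rule names are not reported here.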

Additional observations from a re-analysis of the deposited data

Results flagged for a closer look

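Among 280 sets of values looked at (125 named genes and 15 marker sums, each in V1 and S1 of KO Camk2a mice), 28 (10.0%) had 1 library far from the others by Dixon's criterion; chance gives about 1 in 20. In animal C3, Pld5 had 12.0 CPM and Lypd1 116 CPM in V1, and the claustrum and insula markers summed to 886 CPM there. In its S1 library Fibcd1 had 15.1 CPM, Gpr161 10.1 CPM, Igsf3 11.5 CPM and Vamp1 323 CPM. Its PV interneuron markers summed to 1417 CPM in V1 and 2605 CPM in S1, the highest value in both areas.

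In animal C4, Nrp2 had 29.1 CPM in V1. Its S1 library had 7.35 CPM of Lypd1, 268 CPM of Cux1, 3173 CPM of Atp2b2, 149 CPM of Gabrb1 and 11 CPM of Chrnb3. In the same library the astrocyte markers summed to 1477 CPM, the vascular markers to 275 CPM and the retrosplenial cortex markers to 2496 CPM.

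In animal C14, Egr2 (62.7 CPM), Ptgs2 (61.5 CPM) and Rasd2 (114 CPM) were far above the other V1 libraries. In animal C7, Ntsr1 had 22.0 CPM in V1, Robo3 had 7.60 CPM in V1 and 15.1 CPM in S1, Nnat had 6.33 CPM in S1, and the claustrum and insula markers summed to 608 CPM in S1. In animal C6, Snap25 had 5425 CPM in V1 and the red blood cell markers summed to 3.40 CPM in S1.

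Between the classes, 701 genes had a V1 to S1 difference in KO mice that differed between Camk2a and PV libraries by the interaction test, Kcnab3 with the smallest adjusted p.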

How the results depend on the processing

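Of the 2058 genes called between V1 and S1 in KO Camk2a libraries, all kept their sign under RLE factors, DESeq2, the animal block and the covariates. The count was 3281 with the animal block (replicate block), 3700 with limma-voom and the animal as a random block, 1067 with a striatal marker score, 988 in females alone, 1147 without the V1 libraries of C4 and C5, 669 without the S1 libraries of C5, C6 and C14, and 186 without all 5; these 3 exclusions were chosen after seeing the data. Leaving out single libraries gave 1477 (without V1 of C4) to 2209. In the last of the 3 exclusions 61.8% of calls were higher in V1, against 49.1% with all libraries. The WT count of 56 was 1345 with DESeq2, 206 above 5 CPM, 385 without the sex term and 7 with the animal block. It was 2727 without the Batch 2 library, which is S1 of C24, and 3405 without both libraries of C24, an exclusion also chosen after seeing the data. The KO PV count of 1218 was 2047 with DESeq2, 0 with the block and 3479 without P9 and P24. The genotype-by-area count was 1 with DESeq2 and 0 under each other setting run, with 0 to 0 for single libraries left out; the class-by-area count was 585 to 793. The causes were not tested. Of the 119 called genes named, 42 were called under all 29 settings and none reversed. All these settings reuse libraries in which the genes were called, so kept signs are no separate support. Depth limits genes near 1 CPM most.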
